A study of Mus musculus with 12 samples.

Results

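Peroxins are the proteins that build, fill and divide peroxisomes, and 9 of them, *Pex3*, *Pex5*, *Pex7*, *Pex11a*, *Pex11g*, *Pex13*, *Pex14*, *Pex16* and *Pex19*, were followed in the liver of *Ppara*-/- and *Ppara*+/+ mouse pups at postnatal day 2 (P2). The members were listed by gene symbol, with earlier results of these data known. All 9 were measured, among 19938 genes in all, each by 1 probe set that names it alone. The 6 *Ppara*-/- livers came from pups that lack the receptor in the whole body, and the 6 *Ppara*+/+ livers from wild-type pups. Each genotype had 3 males and 3 females and was untreated, and the pups came from crosses of heterozygous parents. The labels give the strain as SV129, whereas the methods of the study give a C57BL/6 background. RNA of 1 whole liver was hybridised to each Affymetrix Mouse Gene 1.0 ST array, and its probe sets were summarised on a log2 scale by the robust multi-array average (RMA). By the methods of the study, the pups of a genotype came from fewer litters than there were pups, and wild-type and knockout pups were born together. Some pups therefore shared a litter, but the labels do not say which, so litter could not be fitted and the p-values treat the pups as independent.

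Peroxisomes take up fully folded matrix enzymes made in the cytosol. PEX5 carries those that end in a type 1 targeting signal, PEX7 carries the few with an amino-terminal type 2 signal, and both receptors dock at the membrane on PEX13 and PEX14. Membrane proteins take another route, in which PEX19 is their chaperone, PEX3 its anchor and PEX16 the membrane partner that recruits PEX3. PEX11 proteins elongate the membrane before the organelle divides. In rodent liver, activation of PPARα is known to make peroxisomes multiply, which gave the receptor its name.

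*Ppara* itself, the disrupted gene, lay between 10.21 and 10.33 on the log2 scale in *Ppara*-/- livers and between 10.98 and 11.27 in *Ppara*+/+ livers, without overlap; whether its probes lie in the disrupted stretch is not stated. Array medians ran from 7.16 to 7.20, and all 9 peroxins lay above the median of every array. Of 10 hepatocyte markers all 10 lay above the array medians, and none passed between genotypes (median log2 fold change 0.02). None of the markers of other cells passed either. Their median log2 fold changes were -0.16 over 7 erythroid genes, 0.21 over 10 Kupffer cell genes, 0.13 over 8 endothelial genes, 0.10 over 6 stellate cell genes, 0.06 over 5 cholangiocyte genes and 0.07 over 7 granulocyte genes. At an unadjusted p under 0.05 in limma, 5 of the 7 erythroid genes were lower and none higher. By that rule 8 of the 10 Kupffer cell and 5 of the 8 endothelial genes were higher and none lower. So were 2 of the 6 stellate cell and 2 of the 7 granulocyte genes, again with none lower. Over all genes 7.89% were lower and 9.27% higher. Without *Ppara*+/+ replicate 7, which had the lowest array weight of the 12 arrays (0.42), 5 Kupffer cell genes, 2 endothelial genes and 1 stellate cell gene passed as higher. Exocrine pancreas transcripts varied widely within both genotypes: the mean over 5 genes ran from 6.41 to 9.71 in *Ppara*-/- livers and from 6.29 to 8.23 in *Ppara*+/+ livers. All 5 were higher in mean in *Ppara*-/- livers, with log2 fold changes from 0.33 to 1.34 and a median of 1.03, the largest of these medians, and none passed. The part of these other cells in the peroxin results was not tested. Fewer cells of a type and less RNA per cell cannot be told apart in whole liver.

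Of the 9 peroxins 1 was lower in *Ppara*-/- livers and none was higher, at an adjusted p under 0.05 (limma with sex as a term, Benjamini-Hochberg over the 35556 probe sets of the array). Over all genes 1.12% were lower and 1.99% higher by the same rule. The lower gene was *Pex16*. The other 8 stood between -0.13 and 0.02 on the log2 scale, with adjusted p from 0.15 to 0.88, and their 95% intervals lay between -0.24 and 0.10. A fall beyond 1.18-fold or a rise beyond 1.07-fold was thus outside the interval of each of the 8. The median log2 fold change over the 9 peroxins was -0.11, against -0.01 over all genes. The sign was negative for 7 of the 9, as it was for 54.9% of all genes. At an unadjusted p under 0.05, 4 were lower (*Pex16*, *Pex14*, *Pex11a* and *Pex3*) and none higher, where 7.89% of all genes were lower and 9.27% higher.

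**Figure D1:**
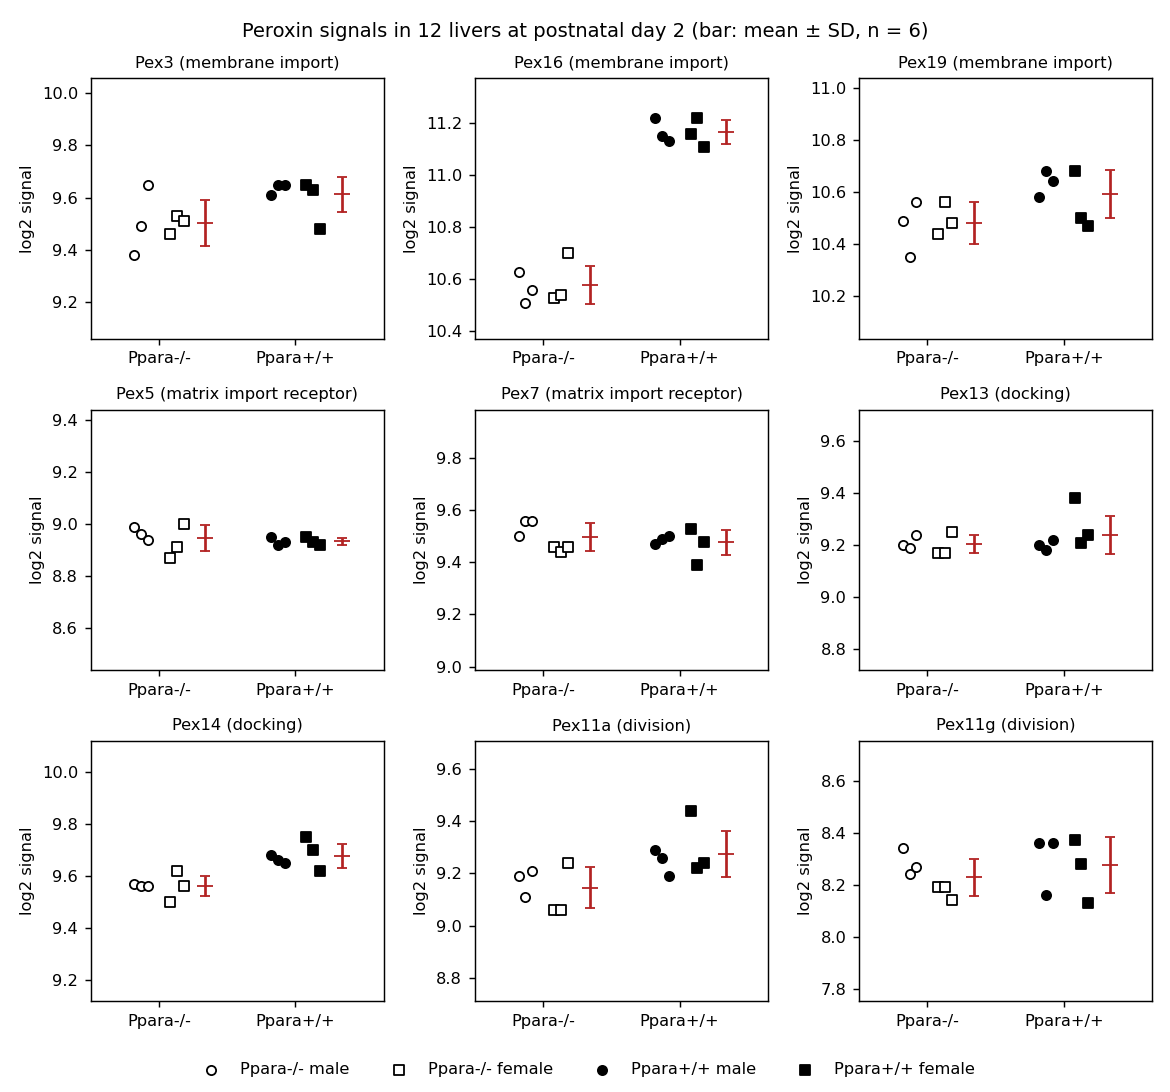
Log2 signal of each of the 9 peroxins (vertical axis, each panel spanning 1 log2 unit) in 6 Ppara-/- livers (open) and 6 Ppara+/+ livers (filled), circles for males and squares for females, with mean ± SD of each genotype beside the points. The Pex16 values of the genotypes lie apart, at 10.51 to 10.70 in Ppara-/- and 11.11 to 11.22 in Ppara+/+ livers, while those of the other 8 genes overlap.

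Among the 3 peroxins of membrane protein import, *Pex16* fell by 33.4% in *Ppara*-/- livers. Its lowest, median and highest signals were 10.51, 10.55 and 10.70 in *Ppara*-/- livers, against 11.11, 11.16 and 11.22 in *Ppara*+/+ livers. All 6 *Ppara*-/- livers lay below all 6 *Ppara*+/+ livers, and the gap between the groups was wider than the range within either. Such a separation was found for 1 of the 9 peroxins in the lower direction and for none in the higher, and for 1.43% and 2.88% of all genes. The means were 10.58 ± 0.07 and 11.17 ± 0.05 (SD, n = 6 each). The log2 fold change was -0.59, with an SE of 0.0424 and an adjusted p of 1.4e-05 in limma. The 95% interval ran from -0.68 to -0.49, or from a 1.41- to a 1.60-fold fall. In size the change ranked at the 99.3 percentile of all genes, and 68 genes that passed, *Pex16* included, fell at least as far.

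*Pex3*, which anchors PEX19 with its cargo at the peroxisome, had lowest, median and highest signals of 9.38, 9.50 and 9.65 in *Ppara*-/- livers, against 9.48, 9.64 and 9.65 in *Ppara*+/+ livers. The groups overlapped, although 5 of 6 *Ppara*-/- livers were below the *Ppara*+/+ median; the 1 high *Ppara*-/- liver was male replicate 6 and the 1 low *Ppara*+/+ liver was female replicate 9. Its log2 fold change was -0.11 (SE 0.049, adjusted p = 0.33 from limma). *Pex19*, the cytosolic chaperone of membrane proteins, had 10.35, 10.49 and 10.56 in *Ppara*-/- livers, against 10.47, 10.61 and 10.68 in *Ppara*+/+ livers. All 6 *Ppara*-/- values lay below the *Ppara*+/+ median, but only 2 below the lowest *Ppara*+/+ value. Its log2 fold change was also -0.11 (SE 0.0522, adjusted p = 0.35). The 3 proteins act in one pathway, but of their transcripts only that of *Pex16* passed.

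To set *Pex16* directly against the others, its log2 signal minus that of each other peroxin was formed within every array and expressed relative to the *Ppara*+/+ mean of that difference; this comparison was chosen after the values had been seen. In all 8 pairs the 6 *Ppara*-/- arrays lay below the 6 *Ppara*+/+ arrays. Against *Pex3* the difference ran from -0.64 to -0.30 in *Ppara*-/- arrays and from -0.07 to 0.07 in *Ppara*+/+ arrays. Against *Pex19* it ran from -0.59 to -0.36 in *Ppara*-/- arrays and from -0.11 to 0.14 in *Ppara*+/+ arrays. The mean shift was -0.48 in both, and over the 8 pairs it ran from -0.61 (against *Pex7*) to -0.46 (against *Pex11a*). *Pex16* was chosen for this because it alone had separated the genotypes, and all 8 pairs share it, so the differences are given as a description, with no test.

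**Figure D2:**
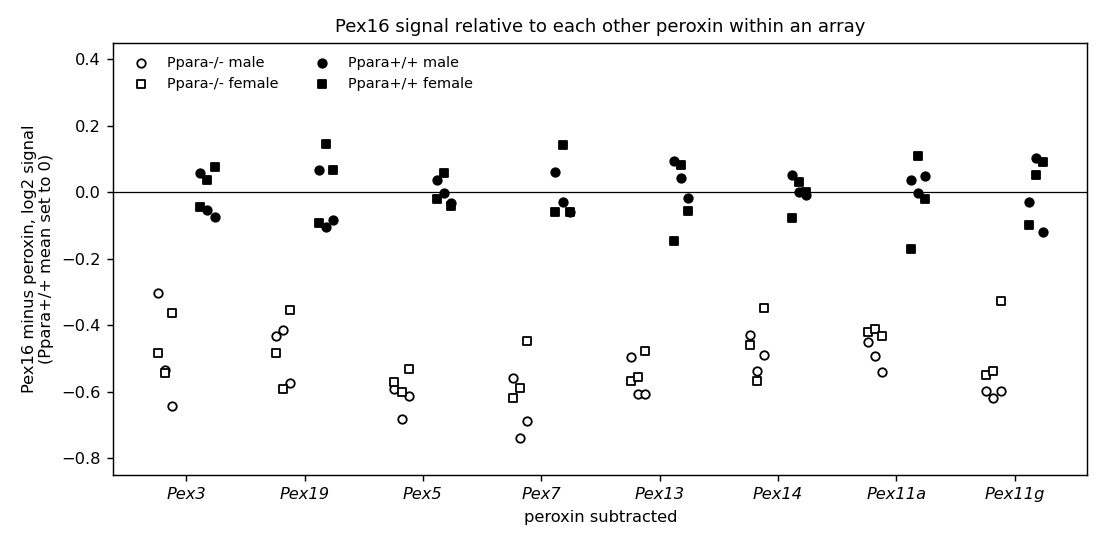
Log2 signal of Pex16 minus that of each other peroxin on the same array (vertical axis, with the Ppara+/+ mean of each pair set to 0) in 6 Ppara-/- livers (open) and 6 Ppara+/+ livers (filled), circles for males and squares for females. In all 8 pairs the Ppara-/- arrays lie below the Ppara+/+ arrays, with a mean shift from -0.61 to -0.46.

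Promoter sequences of the members were read from RefSeq (GRCm38.p6) as windows of 250 bases before to 50 bases after each annotated start, which gave 11 windows for 8 of the 9 peroxins, all but *Pex19*. They were searched on both strands for the half-site AGGTCA bound by many nuclear receptors, for the direct repeat of 2 half-sites with 1 base between them that PPARs bind with their partner RXR (AGGTCANAGGTCA, up to 2 mismatches), and for the general promoter motifs CCAAT and GGGCGG. Shown here are both windows of *Pex16*, the member that fell, and those of the division factors *Pex11a* and *Pex11g*, as members that did not pass. Capitals mark any match to these motifs on either strand.
*Pex16*, chr2:92374426-92374725, plus strand: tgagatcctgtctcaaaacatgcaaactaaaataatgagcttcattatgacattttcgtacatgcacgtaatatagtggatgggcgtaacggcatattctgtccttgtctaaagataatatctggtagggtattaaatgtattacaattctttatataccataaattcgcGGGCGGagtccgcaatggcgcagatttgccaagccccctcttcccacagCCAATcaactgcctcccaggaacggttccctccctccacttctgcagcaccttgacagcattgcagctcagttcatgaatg
*Pex16*, second start, chr2:92374989-92375288, plus strand: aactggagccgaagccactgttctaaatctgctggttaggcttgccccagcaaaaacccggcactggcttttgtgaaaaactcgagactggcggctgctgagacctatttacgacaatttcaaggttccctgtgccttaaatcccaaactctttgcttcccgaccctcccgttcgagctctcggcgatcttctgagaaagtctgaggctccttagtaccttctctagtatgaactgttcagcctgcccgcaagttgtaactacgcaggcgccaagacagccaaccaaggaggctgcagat
*Pex11a*, chr7:79743082-79743381, minus strand: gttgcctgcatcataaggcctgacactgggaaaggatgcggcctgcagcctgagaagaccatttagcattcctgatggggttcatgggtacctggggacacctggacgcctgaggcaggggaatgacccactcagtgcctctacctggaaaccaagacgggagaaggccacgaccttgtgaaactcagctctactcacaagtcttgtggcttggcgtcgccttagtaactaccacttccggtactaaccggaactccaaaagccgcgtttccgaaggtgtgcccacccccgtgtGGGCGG
*Pex11g*, chr8:3467599-3467898, minus strand: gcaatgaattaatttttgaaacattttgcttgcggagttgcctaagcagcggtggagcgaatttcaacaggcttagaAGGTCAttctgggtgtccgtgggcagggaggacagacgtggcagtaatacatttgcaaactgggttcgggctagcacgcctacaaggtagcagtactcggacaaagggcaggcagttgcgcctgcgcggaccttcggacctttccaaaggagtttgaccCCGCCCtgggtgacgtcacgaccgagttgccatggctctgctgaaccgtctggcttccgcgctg

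None of the 11 windows held the direct repeat, which 3.86% of all 32851 windows in the table did. The single half-site was found in 1 of the 11, that of *Pex11g*, where it begins at -173 counted from the start, and in 16.3% of all windows. The first *Pex16* window holds GGGCGG from position -80 and CCAAT from position -31, while its second window holds none of the 4 motifs. GGGCGG occurred in 8 of the 11 windows and CCAAT in 4, against 35.7% and 37.4% of all windows. By gene, GGGCGG was found in 7 of the 8 peroxins and CCAAT in 3. *Pex5* has several windows, which in part overlap and share GGGCGG matches, so the windows are not all separate. The windows do not reach introns or more distant sequence.

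The receptors of matrix import did not pass. *Pex5*, the receptor for the type 1 signal, had lowest, median and highest signals of 8.87, 8.95 and 9.0 in *Ppara*-/- livers, against 8.92, 8.93 and 8.95 in *Ppara*+/+ livers. The *Ppara*-/- values lay on both sides of the *Ppara*+/+ range, 2 below and 3 above it. Its log2 fold change was 0.02 (SE 0.0336, 95% interval -0.06 to 0.09, adjusted p = 0.88 from limma). *Pex7*, the receptor for the type 2 signal, had 9.44, 9.48 and 9.56 in *Ppara*-/- livers, against 9.39, 9.49 and 9.53 in *Ppara*+/+ livers, with the same log2 fold change of 0.02 (SE 0.0359, interval -0.06 to 0.10, adjusted p = 0.85). The groups of both genes overlapped. These intervals leave room for a change of at most about 1.07-fold.

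Of the docking proteins *Pex13*, a membrane protein with an SH3 domain that binds PEX5, had 9.17, 9.19 and 9.25 in *Ppara*-/- livers, against 9.18, 9.21 and 9.38 in *Ppara*+/+ livers (log2 fold change -0.04, SE 0.04, adjusted p = 0.75 from limma). Apart from *Ppara*+/+ replicate 7, at 9.38, the arrays lay between 9.17 and 9.25. *Pex14*, the main docking site of loaded PEX5, had 9.50, 9.56 and 9.62 in *Ppara*-/- livers, against 9.62, 9.67 and 9.75 in *Ppara*+/+ livers. The groups touched at one end, with 5 of 6 *Ppara*-/- livers below every *Ppara*+/+ liver. Its log2 fold change was -0.11 (SE 0.0353, interval -0.19 to -0.03), with an unadjusted p of 0.00861 in the limma fit but an adjusted p of 0.15, so it did not pass over all probe sets. It had the lowest adjusted p of the 8 peroxins that did not pass.

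The division factors of the PEX11 family did not pass either. *Pex11a*, the isoform that is inducible by peroxisome proliferators in rodent liver, had lowest, median and highest signals of 9.06, 9.15 and 9.24 in *Ppara*-/- livers, against 9.19, 9.25 and 9.44 in *Ppara*+/+ livers. All 6 *Ppara*-/- values were below the *Ppara*+/+ median, and 3 were below the lowest *Ppara*+/+ value. The log2 fold change was -0.13 (SE 0.0527, interval -0.24 to -0.01), with an unadjusted p of 0.0346 in the limma fit and an adjusted p of 0.29. *Pex11g*, a second isoform of the family, had 8.14, 8.22 and 8.34 in *Ppara*-/- livers, against 8.13, 8.32 and 8.37 in *Ppara*+/+ livers, and the *Ppara*-/- range lay inside the *Ppara*+/+ range. Its log2 fold change was -0.05 (SE 0.0522, adjusted p = 0.72).

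**Figure D3:**
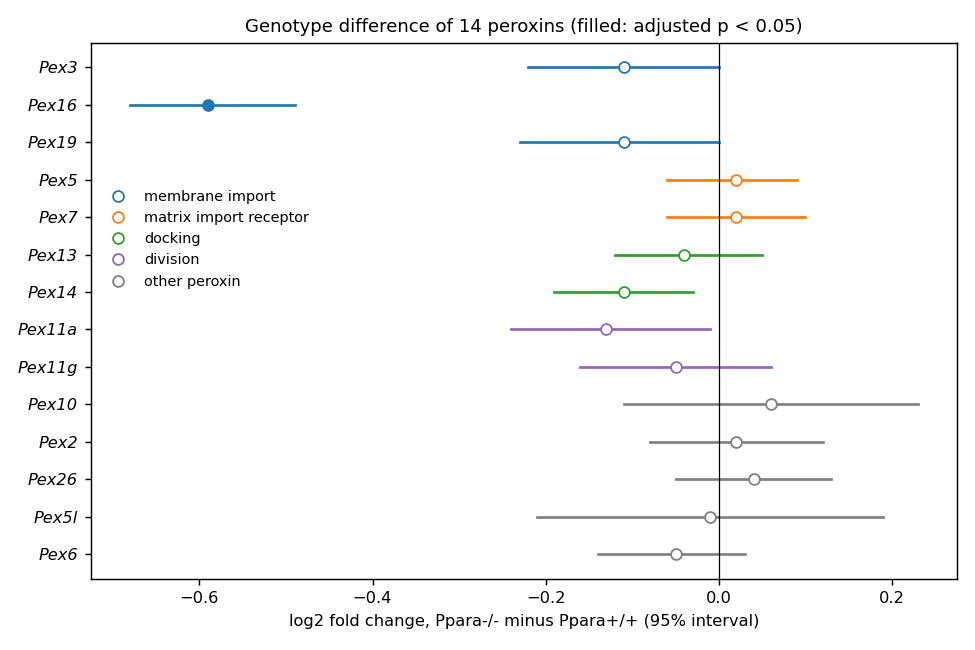
Log2 fold change of 14 peroxins (horizontal axis, Ppara-/- minus Ppara+/+, 6 livers each) with 95% intervals, the 9 members above and 5 further peroxins below, coloured by role. Only Pex16, at -0.59, is filled as passing at an adjusted p under 0.05; the other 8 members lie between -0.13 and 0.02.

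Of the other peroxins 5 were read from a probe set of their own. None of the 5 passed in limma, and none had an unadjusted p under 0.05. *Pex2* and *Pex10*, subunits of the ubiquitin ligase that recycles PEX5, had log2 fold changes of 0.02 (adjusted p = 0.86) and 0.06 (adjusted p = 0.80). *Pex6*, an ATPase that pulls PEX5 out of the membrane, stood at -0.05 (adjusted p = 0.60) and its membrane anchor *Pex26* at 0.04 (adjusted p = 0.71). *Pex5l*, a relative of *Pex5* known mainly from brain, stood at -0.01. Its mean signals, 6.21 in *Ppara*-/- and 6.22 in *Ppara*+/+ livers, lay below the array medians. Over all 14 measured genes with a peroxin symbol, *Pex5l* included, 1 was lower and none was higher. Their median log2 fold change was -0.04.

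The fall of *Pex16* was present in both sexes. In males its log2 fold change was -0.60 (adjusted p = 0.0015 from limma) and in females -0.57 (adjusted p = 0.0019), where 0.466% of all genes were lower in males and 0.487% in females by the same rule. The other 8 peroxins passed in neither sex. For an interaction of genotype and sex none of the 9 passed and none had an unadjusted p under 0.05 in limma, while over all genes 0% passed and 1.79% had such a p. The interaction of *Pex16* was -0.03 (SE 0.089). Between males and females, with genotype as a term, again none of the 9 passed and none had an unadjusted p under 0.05, with differences from -0.03 to 0.07 on the log2 scale. Over all genes 0.0401% passed for sex and 2.78% had an unadjusted p under 0.05.

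The genes whose signal most resembled that of *Pex16* over the 12 arrays were *Decr2*, a peroxisomal dienoyl-CoA reductase (Pearson r of 0.990), *Acadvl*, the mitochondrial very long chain acyl-CoA dehydrogenase (0.989), and *Hsdl2*, a protein related to hydroxysteroid dehydrogenases (0.988). The 12 points share the difference between genotypes, which all 3 genes carry, with log2 fold changes of -1.80, -0.74 and -0.48. After the mean of each genotype was subtracted, r over the same 12 arrays was 0.80, 0.60 and 0.68. These are descriptions over few arrays. *Ppara* itself came at rank 29, with an r of 0.969 over all arrays and 0.05 after subtraction.

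Around the peroxins, the transcripts of other peroxisome proteins were counted by role in lists that share no gene with the 9. The division machinery that peroxisomes share with mitochondria had 1 lower gene of 6 and none higher. This was *Mief2*, an adaptor of the fission GTPase known mainly from mitochondria (log2 fold change -0.21, SE 0.0449, adjusted p = 0.032 from limma). The GTPase itself, *Dnm1l*, stood at 0.02 (adjusted p = 0.82), and its adaptors *Fis1* and *Mff* both at -0.06 (adjusted p = 0.52 and 0.70). The median of the list was -0.03. Leaving out any of *Ppara*-/- replicates 5, 6, 11 and 12 and *Ppara*+/+ replicates 1, 2, 3, 8 and 9 ended the call of *Mief2*, with adjusted p of 0.055 to 0.088.

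Of 4 tethers that hold peroxisomes to the endoplasmic reticulum 1 was lower and none was higher. *Acbd5*, the acyl-CoA binding protein on the peroxisomal side of the contact, ranged from 8.99 to 9.27 in *Ppara*-/- livers and from 9.40 to 9.64 in *Ppara*+/+ livers, without overlap, and fell 1.33-fold (SE of the log2 value 0.0568, adjusted p = 0.0023 from limma). Its partners in the endoplasmic reticulum, *Vapa* (log2 fold change 0.13, adjusted p = 0.073) and *Vapb* (0.05, adjusted p = 0.54), and its relative *Acbd4* (-0.07, adjusted p = 0.33) did not pass. The *Vapa* values did not overlap, at 11.29 to 11.34 in *Ppara*-/- livers, against 11.14 to 11.25 in *Ppara*+/+ livers. Such a separation upward was found for 2.88% of all genes. *Vapa* passed as higher without *Ppara*+/+ replicate 7 (adjusted p = 0.033 from limma).

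Among 8 measured transporters and channels of the peroxisomal membrane 3 were lower, none was higher, and the median was -0.11. *Pxmp4*, a peroxisomal membrane protein, ranged from 10.80 to 10.93 in *Ppara*-/- livers, against 11.36 to 11.45 in *Ppara*+/+ livers (log2 fold change -0.57, SE 0.0368, adjusted p = 6.1e-06 from limma). *Abcd2*, a transporter of very long chain acyl-CoA, ranged from 11.24 to 11.58 in *Ppara*-/- livers, against 11.96 to 12.06 in *Ppara*+/+ livers (-0.54, SE 0.0531, adjusted p = 2.1e-04). *Abcd3*, which encodes PMP70, the protein that the study stained to count peroxisomes, had a log2 fold change of -0.23 (SE 0.0464, adjusted p = 0.022). Its call was lost when any of *Ppara*-/- replicates 4, 5, 10 and 11 and *Ppara*+/+ replicates 1, 2, 8 and 9 was left out, with adjusted p of 0.053 to 0.064. With the PMP70 stain the study reported fewer peroxisomes in *Ppara*-/- hepatocytes before birth, but no difference between genotypes at P2. The stain measures protein in isolated hepatocytes, and the array measures RNA of whole liver. *Pxmp2*, a membrane channel, stood at -0.07 (adjusted p = 0.63) and *Slc25a17*, a carrier of CoA and related cofactors, at 0.11 (adjusted p = 0.31).

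A list of 11 genes of PEX5 recycling, matrix proteolysis and peroxisome turnover had 2 lower genes, both of them matrix proteases, and a median of 0.05. *Lonp2*, an ATP-dependent protease of the matrix, ranged from 10.20 to 10.42 in *Ppara*-/- livers, against 10.64 to 10.79 in *Ppara*+/+ livers, a log2 fold change of -0.38 (adjusted p = 6.9e-04 from limma). *Tysnd1*, which cleaves imported matrix enzymes, fell 1.16-fold (adjusted p = 0.042). The call of *Tysnd1* was lost without any 1 array other than *Ppara*+/+ replicate 9 (adjusted p from 0.053 to 0.099). The autophagy receptors *Nbr1* (0.06) and *Sqstm1* (0.09), which can lead peroxisomes to degradation, did not pass (adjusted p = 0.48 and 0.22 from limma). Nor did *Usp9x*, a deubiquitinase of PEX5 (0.05, adjusted p = 0.55). The *Sqstm1* values did not overlap, at 12.23 to 12.34 in *Ppara*-/- livers, against 12.17 to 12.21 in *Ppara*+/+ livers. Such a separation upward was found for 2.88% of all genes.

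The cargo of the import receptors is the matrix enzymes. Of 21 measured genes listed as matrix enzymes of fatty acid oxidation 9 were lower and 2 higher, with a median of -0.17. Of 15 listed as other matrix enzymes 2 were lower and 1 higher, with a median of -0.03. Of the first list *Acaa1b*, *Acaa1a* and *Phyh*, and of the second *Agps*, are known to enter with the type 2 signal that PEX7 reads. The thiolase *Acaa1b* fell 3.45-fold (adjusted p = 3.3e-08 from limma) and *Acaa1a* 1.27-fold (adjusted p = 6.2e-04), similar genes whose probes may not separate them fully. *Phyh*, which starts phytanic acid oxidation, rose 1.19-fold (adjusted p = 9.8e-04), and *Agps*, an enzyme of ether lipid synthesis, stood at 0.06 (adjusted p = 0.66). Among the enzymes without this signal *Decr2* fell 3.48-fold, *Ech1* 2.18-fold, *Hsd17b4* 1.74-fold, *Ehhadh* 1.72-fold, *Eci2* 1.51-fold and *Hacl1* 1.45-fold, whereas *Acot4* rose 1.24-fold. *Acot12*, counted in the first list although its product is known mainly as a cytosolic enzyme, fell 1.19-fold. In the other list *Hao1*, a glycolate oxidase, fell 1.27-fold, *Ephx2*, an epoxide hydrolase, fell 1.23-fold, and *Agxt*, an aminotransferase, rose 1.13-fold. *Cat*, catalase, stood at -0.05 on the log2 scale (adjusted p = 0.65).

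A few of these calls changed when 1 array was left out, for some genes whichever of several arrays it was. *Agxt* lost its call when any of *Ppara*-/- replicates 4, 5, 6, 10 and 12 and *Ppara*+/+ replicates 1, 3, 8 and 9 was left out, with adjusted p of 0.053 to 0.078 in limma. *Ddo* (0.04) and *Pipox* (0.019), both oxidases of amino acids, passed as higher without *Ppara*+/+ replicate 7. *Amacr*, a racemase, passed as lower without *Ppara*+/+ replicate 9 (0.026) and *Acot8*, a thioesterase, without *Ppara*+/+ replicate 8 (0.028). All lists were chosen with earlier results of these data known, and their counts are descriptions beside the 1.12% of all genes that were lower and the 1.99% that were higher.

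**Figure D4:**
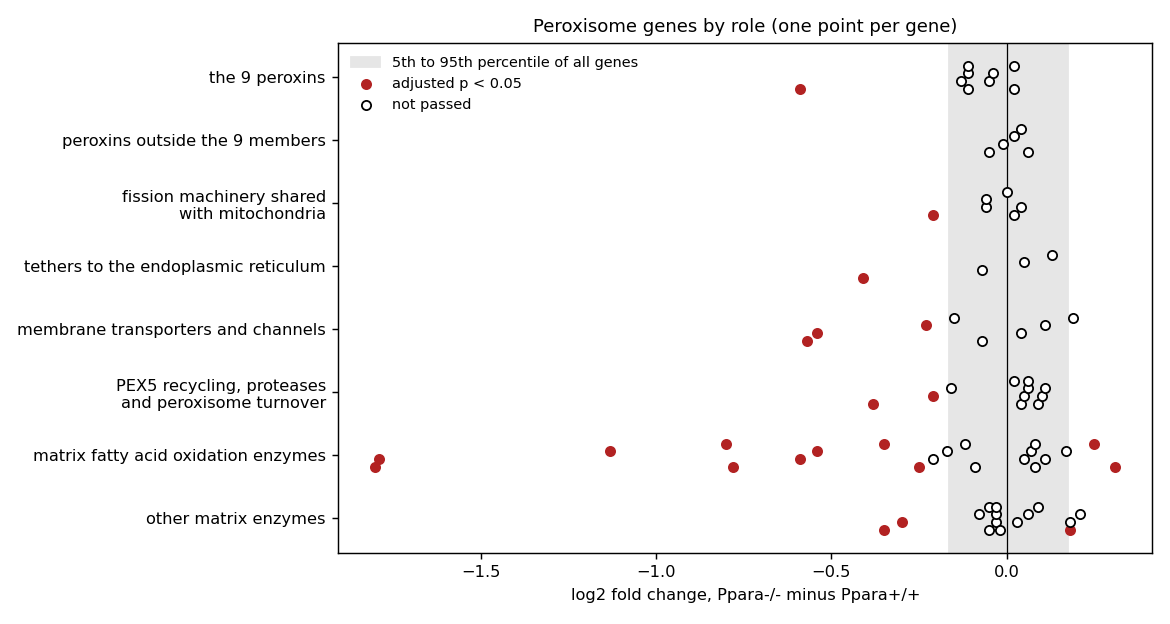
Log2 fold change of each measured gene (horizontal axis, Ppara-/- minus Ppara+/+, 6 livers each) in the 9 peroxins and 7 lists of peroxisome genes by role, 1 point per gene, red where the adjusted p is under 0.05; points are spread vertically for visibility, and the grey band spans the 5th to 95th percentile of all genes, -0.17 to 0.17. Pex16 is the only red point among the peroxins, while 9 genes of the list of matrix fatty acid oxidation enzymes are red on the left.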

How the data were processed

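The array values were deposited on a log2 scale, 1 signal per probe set and pup, as the authors had summarised and normalized them across arrays with RMA (version not given in the sources used here), and they were used without further scaling. Platform annotation gave 21789 probe sets 1 gene, 1621 several and 12146 none. Each gene was represented by its brightest probe set, by the mean over 12 arrays, among those naming no other gene.

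Genotype and sex were fitted together for all 35556 probe sets (limma 3.58.1 in R 4.3.3, empirical Bayes, 9 residual and 2.49 prior degrees of freedom), and p-values were adjusted over all of them by Benjamini-Hochberg. Interaction and within-sex contrasts came from a model with 4 genotype-and-sex groups. The script was tested on simulated data, and the number of pups limits the precision.

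Named genes were *Ppara*, the members, further peroxins, list genes that passed, and the 3 genes most correlated with a member that passed; other list genes were named after their values had been seen. Members, lists (7 by role, 8 of cell type markers) and this rule were chosen with earlier results of these data known. Alternatives changed the model terms, the normalization, the filter on dim or shared probe sets, the variance model, the array weights, the test (exact Mann-Whitney), the gene summary, the threshold on fold, and the arrays included, leaving out 1 at a time.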

Additional observations from a re-analysis of the deposited data

Results flagged for a closer look

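Of 18 sets of 6 values (9 peroxins in each genotype), 2 held a single array far from the other 5 by Dixon's criterion, which chance meets in about 1 of 20 sets. *Pex3* was 9.48 in *Ppara*+/+ replicate 9, where the other 5 *Ppara*+/+ livers lay between 9.61 and 9.65. Without that array the log2 fold change of *Pex3* was -0.13 (adjusted p = 0.279 from limma), against -0.11 with all arrays. *Pex13* was 9.38 in *Ppara*+/+ replicate 7, where the other 5 lay between 9.18 and 9.24. Without it the log2 fold change of *Pex13* was -0.01 (adjusted p = 0.93), against -0.04 with all arrays. Neither gene passed with or without the array.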

How the results depend on the processing

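Of the 22 alternatives run for single genes 7 leave the log2 fold change as it is and bear only on its error or p, and 15 can move it. All 9 peroxins kept their direction under those 15. *Pex16* ran from -0.61 to -0.57 and passed under 21 of the 22, with adjusted p from 1.2e-06 to 9.7e-05. Under the adjusted exact Mann-Whitney test it did not pass (adjusted p = 0.0691), and the count of lower peroxins became 0; 6 against 6 arrays allow no p below 0.00216 before adjustment. The exact Mann-Whitney test without adjustment called 3 lower, namely *Pex16*, *Pex14* (exact p = 0.00433) and *Pex11a* (exact p = 0.0411). With a log2 change above 1.3 the count was 0, since *Pex16* fell by 0.59. The count of lower peroxins was 1 when each array was left out in turn and under the other 10 alternatives. The counts of higher peroxins, of interactions and of differences between sexes were 0 under all alternatives run for them. The 8 other peroxins passed under none of their 22, with adjusted p down to 0.07 for *Pex14* outside the Mann-Whitney test. Every member has 1 probe set, so averaging probe sets changed only the set of tests, and all members were brighter than the 40th percentile of signal. No paired analysis was possible because the labels do not give the litter of each pup.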
